A study of Mus musculus with 24 samples.

Results

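Transcripts of 10 genes that mark astrocytes were followed through 24 neural stem and progenitor cell (NSPC) libraries of 3 *Kat6a* genotypes. The genes were *Gfap*, *Aqp4*, *Aldh1l1*, *S100b*, *Slc1a2*, *Slc1a3*, *Gja1*, *Gjb6*, *Aldoc* and *Fgfr3*. They were chosen by name, with earlier results of these data known. All 10 were found among the 26411 genes of the count tables. NSPCs came from the dorsal telencephalon, the part of the embryonic brain that forms the cortex, of C57BL/6 mouse embryos at E12.5. Embryos were *Kat6a*+/+ wildtype, *Kat6a*+/- heterozygous or *Kat6a*-/- homozygous mutant. The mutant allele is a germline deletion of a block of exons that puts an early stop codon into the catalytic domain of KAT6A, a histone acetyltransferase, so every cell of a mutant culture carries it. Cells were cultured for 3 days either in medium with growth factors (proliferating) or on a poly-ornithine and laminin surface with 1% serum and no growth factors (differentiating). There were 4 libraries for each genotype in each condition.

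Astrocytes are glial cells that clear glutamate from synapses, buffer potassium and water, and form a network joined by gap junctions. In the cortex they arise late in development, after neurons, from radial glia, which are the neural stem cells of that region. Radial glia and astrocytes share several transcripts, such as those of the glutamate transporter *Slc1a3*, while *Gfap* and *Aqp4* are known as markers of later, more mature astrocytes in the mouse.

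Of the 10 genes, *Gfap* (chr11:102778159-102791738, mm39, minus strand) encodes the intermediate filament protein of astrocytes and *S100b* (chr10:76085090-76097159, plus strand) a calcium-binding protein. *Slc1a2* (chr2:102488574-102621129, plus strand) and *Slc1a3* (chr15:8663604-8741595, minus strand) encode the glutamate transporters GLT-1 and GLAST. *Aqp4* on chromosome 18 encodes a water channel, and *Gja1* (chr10:56253241-56278609, plus strand) and *Gjb6* (chr14:57360757-57371087, minus strand) the gap junction proteins connexin 43 and connexin 30. *Aldh1l1* (chr6:90463409-90577185, plus strand) encodes an enzyme of folate metabolism, *Aldoc* (chr11:78213619-78218889, plus strand) a glycolytic aldolase and *Fgfr3* (chr5:33879018-33894412, plus strand) a receptor for fibroblast growth factors. All 10 are protein-coding genes on different loci, and reads were counted over their exons.

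Total counts per library ranged from 7826660 to 40838203 in proliferating and from 14836869 to 23692125 in differentiating NSPCs. Proliferating and differentiating RNA was extracted with different kits, so kit and condition cannot be told apart. Sex, called male above 20 CPM of Y-linked reads, was male in 3 of the 4 *Kat6a*+/+ libraries of either condition but in 1 of 4 in every *Kat6a*+/- and *Kat6a*-/- group, so sex and genotype were partly confounded. One embryo label, that of *Kat6a*+/+ replicate 1, was male by these reads in the differentiating and female in the proliferating library. *Kat6a* itself was at 160.0, 253, 164 and 188 CPM (read counts scaled to one common library size) in differentiating *Kat6a*-/- replicates 1 to 4 and at 239 to 292 CPM in *Kat6a*+/+. In proliferating NSPCs *Kat6a* was at 334 to 389 CPM in *Kat6a*-/- and 373 to 409 CPM in *Kat6a*+/+ libraries. Counts over the whole gene include reads outside the deletion and do not check the genotype labels. In bulk RNA, fewer cells of a type and less RNA per cell cannot be told apart.

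The label of astrocyte markers was checked against the levels in *Kat6a*+/+ NSPCs, which were compared between genes per kilobase of exon (RPKM, CPM divided by the exon length in kilobases). In proliferating *Kat6a*+/+ NSPCs *Slc1a3* was the most abundant of the 10 at 155 ± 18.7 RPKM (SD, n = 4), followed by *Aldoc* at 37.1 ± 7.77 and *Gja1* at 26.6 ± 2.22 RPKM. *Fgfr3* was at 9.61 ± 1.54 RPKM, and *Aldh1l1*, *S100b* and *Slc1a2* lay between 1.79 and 5.15 RPKM on average with overlapping libraries. *Gfap* at 0.0613 ± 0.0565 RPKM and *Aqp4* at 0.0424 ± 0.0275 RPKM were close to the detection limit, and *Gjb6* had no read. The 2 markers known from more mature astrocytes, *Gfap* and *Aqp4*, were thus nearly absent at this stage.

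In differentiating *Kat6a*+/+ NSPCs *Slc1a3* was again highest at 341 ± 34.0 RPKM (SD, n = 4), and *Gfap* was second at 134 ± 39.7 RPKM. *Gfap* did not differ beyond its spread from *Aldoc* at 128 ± 44.9 RPKM. *Gja1* at 66.2 ± 18.2, *Fgfr3* at 28.8 ± 3.27 and *Aqp4* at 19.4 ± 5.31 RPKM came next, and the libraries of these 3 genes did not overlap each other. *Aldh1l1* was at 8.17 ± 2.11 RPKM. *Slc1a2* at 3.59 ± 0.903 and *S100b* at 2.77 ± 1.01 RPKM overlapped, and *Gjb6* was at 0.0791 ± 0.0319 RPKM. *Gjb6* stayed below 1 CPM in every library of either condition, between 0 and 0.637 CPM in differentiating NSPCs, and did not pass the filter on low counts. In proliferating NSPCs it had 0 reads in 11 of 12 libraries and 3 reads in *Kat6a*-/- replicate 4. A count of 0 allowed up to 0.0758 to 0.387 CPM per library there (3 counts, counting error only).

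**Figure D1:**
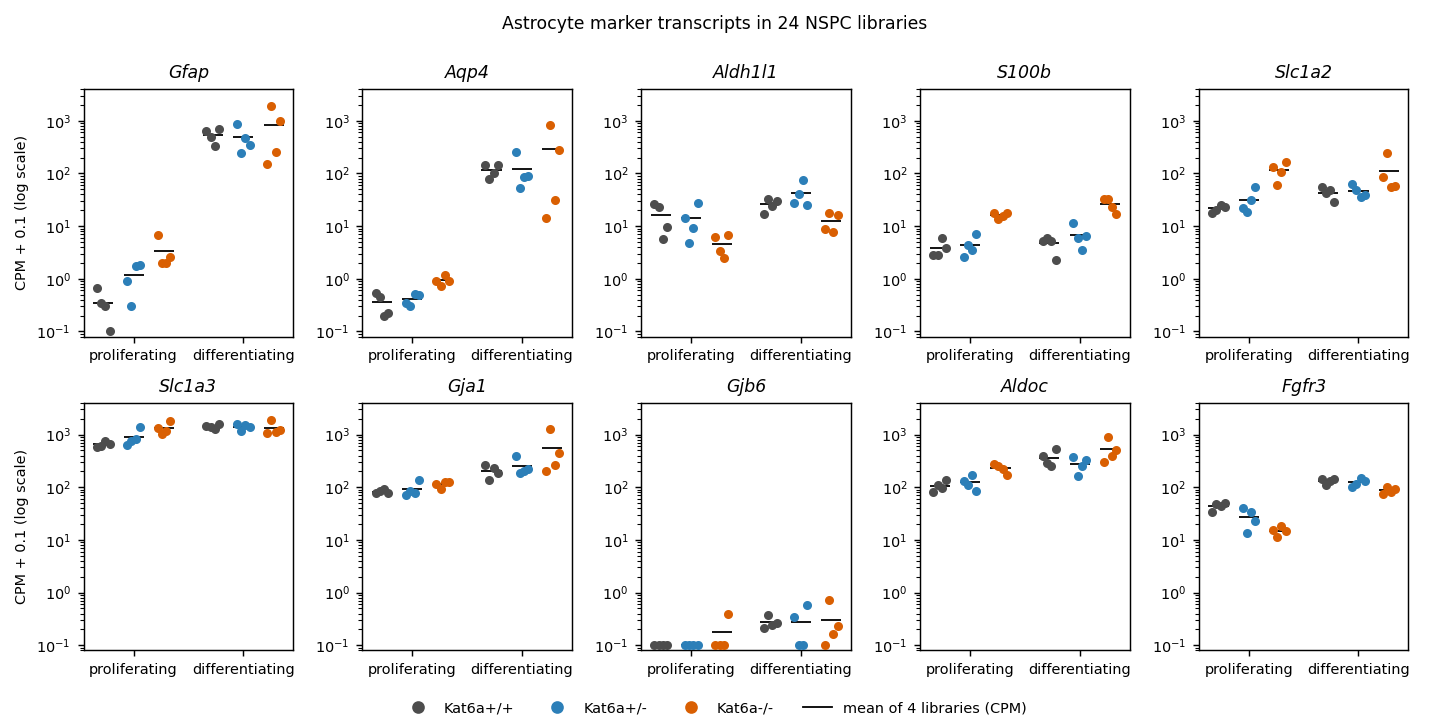
Level of each of the 10 transcripts in each of the 24 libraries, as CPM plus 0.1 on a log scale, for 3 genotypes in proliferating and differentiating NSPCs. Points are libraries and lines are means of 4 libraries. *Gfap* and *Aqp4* stand near the bottom of the scale in proliferating NSPCs and between 14.1 and 1905 CPM in differentiating NSPCs, with the widest scatter in *Kat6a*-/-.

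To ask how the markers changed as NSPCs differentiated, conditions were compared within each genotype. The 6 embryo labels found in both conditions were not paired in this fit. In *Kat6a*+/+ NSPCs 7 of the 9 transcripts tested were higher in differentiating cells and none was lower (false discovery rate, FDR, under 0.05, limma-voom), where 73.0% of all genes tested were called in either direction. *Gfap* went from 0.556, 0.240, 0.201 and 0 CPM in proliferating replicates 1 to 4 to 643, 503, 339 and 703 CPM in differentiating replicates. Its fitted log2 fold-change was 10.88 (SE 2.49, FDR 0.000548). *Aqp4* went from 0.101 to 0.430 CPM to 79.5 to 144 CPM (log2 fold-change 8.54, SE 3.72, FDR 0.0445).

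The other members rose by smaller amounts from higher starting levels. *Aldoc* rose by 1.75 (SE 0.31), *Fgfr3* by 1.63 (SE 0.19), *Gja1* by 1.27 (SE 0.38), *Slc1a3* by 1.13 (SE 0.21) and *Slc1a2* by 1.04 (SE 0.45) on the log2 scale. *Aldh1l1* had an estimate of 0.52 (FDR 0.290) and *S100b* of 0.36 (FDR 0.466), with proliferating and differentiating libraries overlapping for both. *Gfap*, *Slc1a3*, *Gja1*, *Aldoc* and *Fgfr3* were called under all 35 alternative settings. *Aqp4* was called under 21 of 35. It lost its call without differentiating *Kat6a*+/+ replicate 1 or 4, without any 1 of the 4 proliferating *Kat6a*+/+ libraries, and without differentiating *Kat6a*+/- replicate 4, proliferating *Kat6a*+/- replicate 3 or 4 or proliferating *Kat6a*-/- replicate 3 or 4 (FDR 0.0502 to 0.120). *Slc1a2* was called under 27 of 35 and lost its call without differentiating *Kat6a*+/+ replicate 1, 2 or 3 or proliferating *Kat6a*+/+ replicate 1 or 2 (FDR 0.0593 to 0.131).

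In *Kat6a*+/- NSPCs 6 of 9 transcripts were called higher in differentiating cells, against 69.7% of all genes in either direction. These were *Gfap* (log2 fold-change 8.89), *Fgfr3* (2.24), *Aldh1l1* (1.74), *Gja1* (1.41), *Aldoc* (1.11) and *Slc1a3* (0.69). In *Kat6a*-/- NSPCs 5 of 9 were called higher, against 69.3% of all genes. These were *Gfap* (7.50), *Fgfr3* (2.53), *Gja1* (1.87), *Aldoc* (1.07) and *S100b* (0.63, FDR 0.0447). The call of *S100b* was held under 15 of 35 alternatives (FDR 0.00865 to 0.130), with estimates of 0.48 to 0.82. It was lost without any 1 of the 4 proliferating *Kat6a*-/- libraries, proliferating *Kat6a*+/+ replicate 2, 3 or 4 or *Kat6a*+/- replicate 2 or 3, and without differentiating *Kat6a*-/- replicate 1 or 2, *Kat6a*+/+ replicate 2 or *Kat6a*+/- replicate 2 or 4. *Slc1a3* was at 1012 to 1783 CPM in proliferating and 1094 to 1871 CPM in differentiating *Kat6a*-/- libraries, an estimate of 0.01 (95% interval -0.42 to 0.45) whose sign changed between settings.

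Whether *Kat6a* affected these transcripts in dividing cells was examined by comparing proliferating *Kat6a*-/- and *Kat6a*+/+ NSPCs. Of the 10 genes, 8 passed the filter on low counts, 5 were called higher in *Kat6a*-/- and 1 lower, while 30% of all 12276 genes tested were called. The median log2 fold-change of the 8 was 1.05 against -0.00 for all genes tested. The genes were chosen with earlier results of these data known, so they are not an independent set. All 4 *Kat6a*-/- libraries lay above the *Kat6a*+/+ range for 6 of the 8 and below it for 1, and such groups without overlap made up 31.3% of all genes. *Aqp4* and *Gjb6* were too low to be tested.

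*S100b* had the smallest p-value of the 8. It was at 2.78, 2.71, 5.73 and 3.81 CPM in *Kat6a*+/+ replicates 1 to 4, at 2.49, 4.31, 3.35 and 6.93 CPM in *Kat6a*+/- and at 17.7, 13.5, 15.4 and 17.95 CPM in *Kat6a*-/-. Every *Kat6a*-/- library stood above every library of the other genotypes. The log2 fold-change against *Kat6a*+/+ was 2.23 (SE 0.22, FDR 2.85e-05). *Gfap* rose from a very low level. Its libraries were at 0.556, 0.240, 0.201 and 0 CPM in *Kat6a*+/+, at 0.805, 0.201, 1.63 and 1.76 CPM in *Kat6a*+/- and at 6.57, 1.93, 1.86 and 2.49 CPM in *Kat6a*-/-. The 4 *Kat6a*-/- libraries held 15 to 58 reads of *Gfap* each, and replicate 1 stood apart from the others. The log2 fold-change of *Gfap* against *Kat6a*+/+ was 3.51 (SE 0.73, FDR 0.00379).

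Both glutamate transporters rose. *Slc1a2* was at 17.95, 20.0, 25.6 and 22.8 CPM in *Kat6a*+/+, at 22.4, 18.7, 31.4 and 54.9 CPM in *Kat6a*+/- and at 134, 60.0, 108 and 168 CPM in *Kat6a*-/- (log2 fold-change 2.36, SE 0.32, FDR 0.000401). *Slc1a3* was at 576, 602, 751 and 677 CPM in *Kat6a*+/+, at 636, 749, 834 and 1406 CPM in *Kat6a*+/- and at 1322, 1012, 1161 and 1783 CPM in *Kat6a*-/- (log2 fold-change 0.91, SE 0.19, FDR 0.00511). The *Kat6a*-/- libraries lay above all *Kat6a*+/+ libraries for both, whereas *Kat6a*+/- replicate 4 fell within the *Kat6a*-/- range for *Slc1a3* and close to it for *Slc1a2*. The aldolase gene *Aldoc* went from 107 ± 22.3 to 233 ± 47.2 CPM (SD, n = 4; log2 fold-change 1.19, SE 0.19, FDR 0.00108).

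*Fgfr3* moved the other way. It was at 34.3, 47.4, 43.1 and 50.4 CPM in *Kat6a*+/+, at 39.6, 13.6, 33.2 and 22.9 CPM in *Kat6a*+/- and at 15.1, 11.5, 18.5 and 14.7 CPM in *Kat6a*-/-. The *Kat6a*-/- libraries did not overlap the *Kat6a*+/+ libraries, and the *Kat6a*+/- libraries spread across both ranges. *Fgfr3* fell by 1.38 on the log2 scale (SE 0.32, FDR 0.00834), and missed the threshold once litter entered as fixed (-1.27, FDR 0.0890). *Gja1* was at 92.3 to 127 CPM in *Kat6a*-/- and 76.6 to 92.1 CPM in *Kat6a*+/+ libraries, and missed the threshold (log2 fold-change 0.44, SE 0.16, FDR 0.0512). It passed under 7 of 23 alternatives, among them the fits that left out 1 library, *Kat6a*+/- replicate 1 or 4, *Kat6a*-/- replicate 2 or *Kat6a*+/+ replicate 3 (FDR 0.0306, 0.00454, 0.0332 and 0.0478 in that order). *Aldh1l1* ranged from 5.63 to 26.5 CPM in *Kat6a*+/+ and from 2.41 to 6.58 CPM in *Kat6a*-/-, with overlap (log2 fold-change -1.55, SE 0.69, FDR 0.109), and passed under 5 of 23 alternatives. These were edgeR (FDR 0.0406), DESeq2 (FDR 0.0219), litter (-1.75, FDR 0.0436) or sex (-2.03, FDR 0.0205) entered as fixed, and the fit without *Kat6a*+/+ replicate 3 (-2.01, FDR 0.0322). *S100b*, *Slc1a2*, *Slc1a3* and *Aldoc* were called under all 23 alternatives and *Gfap* under all 22 in which it was tested.

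*Aqp4* was at 0.430, 0.361, 0.101 and 0.127 CPM in *Kat6a*+/+ and at 0.793, 0.644, 1.10 and 0.798 CPM in *Kat6a*-/- libraries, 5 to 10 reads in each *Kat6a*-/- library. The *Kat6a*+/+ libraries held 1 to 17 reads. All *Kat6a*-/- libraries were above the *Kat6a*+/+ range, where 31.3% of all genes tested had groups without overlap in either direction. With so few reads, counting error limits this separation. When no filter on low counts was used, the log2 fold-change of *Aqp4* was 1.71 (FDR 0.00742).

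Short stretches upstream of the transcription start are shown for 3 of these genes, *Gfap*, *S100b* and *Slc1a3*, because *Gfap* had the largest fitted rise in proliferating *Kat6a*-/- NSPCs, *S100b* was higher in both conditions and the difference of *Slc1a3* varied with condition. RefSeq promoter windows (GRCm38.p6) of 9 of the 10 genes were used, 11 windows in all, and each matched a single place in GRCm39. *Aqp4* was left out of this search. The 250 bases before the start were searched on both strands for motifs of factors known in gliogenesis, STAT (TTCNNNGAA), NFI (TTGGCA), SOX (ACAATG) and RBPJ (TGGGAA). The starts of *Gfap*, *S100b* and *Slc1a3* lie inside the annotated gene bodies given above, and all or part of each window overlaps annotated exons. Capitals mark the motif, and coordinates are GRCm39.
Gfap, RBPJ, chr11:102788124-102788153, minus strand: gccaggctggtgTTCCCAagaaagccttga
S100b, RBPJ, chr10:76089424-76089453, plus strand: gtctctctcctcTTCCCAaccccagccttg
S100b, NFI, chr10:76089639-76089668, plus strand: ccttggcccccaTTGGCAgcctcagcctgc
Slc1a3, STAT, chr15:8740368-8740397, minus strand: ttcaggatccTTCCAAGAAatttcagttat

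The letters of RBPJ stood 115 to 110 bases before the start of *Gfap*, read from the opposite strand, and those of STAT 96 to 88 bases before the start of *Slc1a3*. For *S100b*, RBPJ, also read from the opposite strand, stood at 234 to 229 bases and NFI at 19 to 14 bases before the start. Among the 11 windows, RBPJ was found in 5, STAT in 2, NFI in 2 and SOX in 0. Among 32851 windows of all genes the shares were 21.6% for RBPJ, 7.02% for STAT, 12.3% for NFI and 10.7% for SOX. A match of letters is a description and does not show binding.

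Cells with a single intact allele were examined in proliferating *Kat6a*+/- vs. *Kat6a*+/+ NSPCs. None of the 8 tested transcripts was called by limma-voom, edgeR or DESeq2, 1 of 8 (*Fgfr3*) had an unadjusted p under 0.05, and 0% of all genes were called by limma-voom (912 of 12276 at an unadjusted p under 0.05). edgeR called 0 and DESeq2 called 28 of all genes. The groups overlapped for all 8, where 4.53% of all genes had groups without overlap. *Kat6a*+/- replicate 4 was the highest of its group for *Gfap*, *Aldh1l1*, *S100b*, *Slc1a2*, *Slc1a3* and *Gja1*. Against *Kat6a*+/- NSPCs, 3 of 8 transcripts were called in *Kat6a*-/-, all higher, and 14.8% of all genes were called. These were *S100b* (log2 fold-change 2.05), *Slc1a2* (1.91) and *Aldoc* (0.90), and 6 were called without *Kat6a*+/- replicate 4. The share of all genes called in that refit is not given, so the gain cannot be read as particular to these transcripts.

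**Figure D2:**
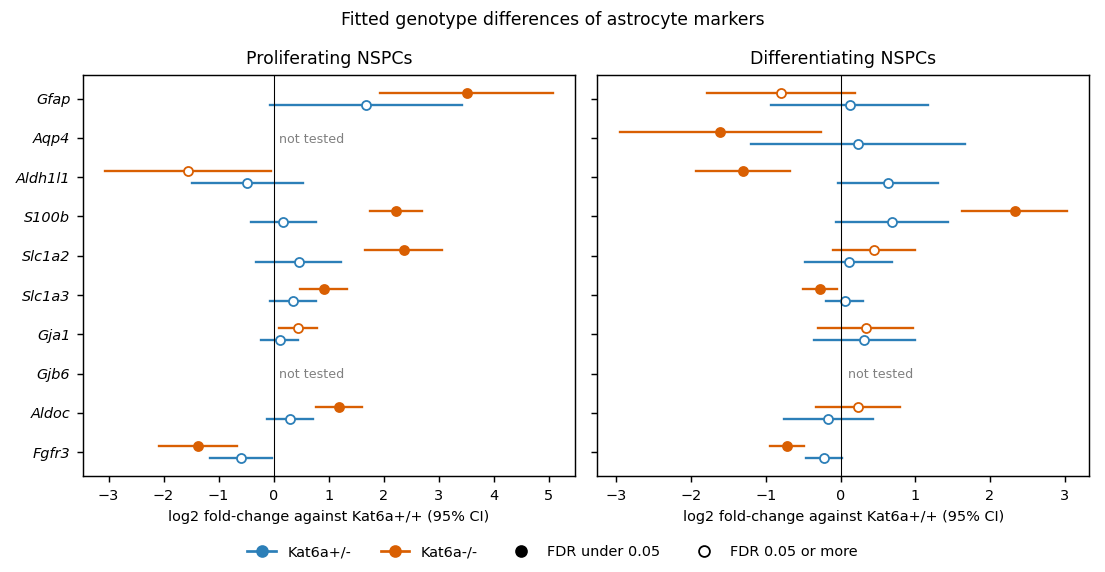
Fitted log2 fold-change against *Kat6a*+/+ for each transcript in *Kat6a*+/- and *Kat6a*-/- NSPCs, in proliferating and differentiating cultures, with 95% confidence intervals. Filled points have an FDR under 0.05. In proliferating *Kat6a*-/- NSPCs 5 filled points lie to the right of 0 and 1 to the left, in differentiating *Kat6a*-/- NSPCs 1 to the right and 4 to the left, and no *Kat6a*+/- point is filled.

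In differentiating NSPCs the same genotypes were compared with another fit, so counts of calls are not directly comparable between the conditions. Of 9 transcripts tested in *Kat6a*-/- vs. *Kat6a*+/+ NSPCs, 1 was called higher and 4 lower (limma-trend), and 54.4% of all 13339 genes tested were called. Libraries of different genotypes shared litters, and this fit has no litter term. With litter as a random block (limma-voom, which also drops the quality weights) 2 of the 9 were called, without quality weights alone 2, with litter as fixed 3 and with sex as fixed 2. The median log2 fold-change of the 9 was -0.27 against -0.02 for all genes. *Kat6a*-/- and *Kat6a*+/+ libraries did not overlap for 3 of 9 (*S100b* and *Slc1a2* above, *Fgfr3* below), and 26.9% of all genes had groups without overlap. The fit weights libraries by quality, and the 4 *Kat6a*-/- replicates carried 16.8%, 4.22%, 69.0% and 10.0% of the weight of their group, so fitted values can differ from the ratio of unweighted CPM. Only 1 of the 9, *S100b*, was called without *Kat6a*-/- replicate 1 or 3, and 3 were called without *Kat6a*+/+ replicate 1 or 4 or *Kat6a*+/- replicate 3 or 4. The shares of all genes called in these refits are not given here, so a loss of calls cannot be read as particular to the 9 transcripts.

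*S100b* was called higher, as it was in proliferating NSPCs. It was at 5.17, 5.95, 5.12 and 2.14 CPM in *Kat6a*+/+ replicates 1 to 4, at 11.5, 5.75, 3.45 and 6.45 CPM in *Kat6a*+/- and at 32.0, 32.0, 22.7 and 16.9 CPM in *Kat6a*-/-. All *Kat6a*-/- libraries exceeded all libraries of the other genotypes. The log2 fold-change was 2.33 (SE 0.32, FDR 0.000100), and it was called under all 25 alternatives, with estimates of 1.93 to 3.01.

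*Fgfr3* was lower, as it was in proliferating NSPCs. It was at 141, 109.9, 131 and 142 CPM in *Kat6a*+/+, at 101, 113, 151 and 132 CPM in *Kat6a*+/- and at 74.0, 100.3, 81.1 and 91.8 CPM in *Kat6a*-/-. *Kat6a*-/- libraries lay below all *Kat6a*+/+ libraries and fell by 0.72 on the log2 scale (SE 0.10, FDR 0.000125). *Aldh1l1* was at 8.53, 17.7, 7.77 and 16.5 CPM in *Kat6a*-/- and at 17.0, 32.0, 24.3 and 29.4 CPM in *Kat6a*+/+, where replicate 2 of *Kat6a*-/- overlapped the *Kat6a*+/+ range, and fell by 1.31 on the log2 scale (SE 0.29, FDR 0.00235). Both lost their call without *Kat6a*-/- replicate 1 (FDR 0.110 for *Fgfr3* and 0.370 for *Aldh1l1*) or replicate 3 (FDR 0.153 and 0.553) while the sign held. *Aldh1l1* was also not called by edgeR (-1.02, FDR 0.0724), without quality weights (-1.07, FDR 0.0575) or with sex as a term (-0.87, FDR 0.144). Nor was it called by limma-voom with litter as a random block.

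*Aqp4* and *Gfap* split the *Kat6a*-/- group. *Aqp4* was at 143, 79.5, 101 and 144 CPM in *Kat6a*+/+, at 258, 52.8, 87.1 and 89.0 CPM in *Kat6a*+/- and at 14.1, 839, 31.2 and 278 CPM in *Kat6a*-/- replicates 1 to 4. *Gfap* was at 643, 503, 339 and 703 CPM in *Kat6a*+/+, at 881, 239, 461 and 347 CPM in *Kat6a*+/- and at 148, 1905, 256 and 992 CPM in *Kat6a*-/-. For both transcripts *Kat6a*-/- replicates 1 and 3 lay below every *Kat6a*+/+ library and replicates 2 and 4 above every one. *Aqp4* had a fitted log2 fold-change of -1.61 (SE 0.62, FDR 0.0433), whereas its unweighted mean was higher in *Kat6a*-/- (291 ± 385 CPM) than in *Kat6a*+/+ (117 ± 31.9 CPM; SD, n = 4). *Gfap* had -0.80 (SE 0.46, FDR 0.156).

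The sign of both transcripts depended on single libraries. Without *Kat6a*-/- replicate 1 the estimates were 0.58 for *Aqp4* and 0.55 for *Gfap*, and without replicate 3 they were 0.80 and 0.65, none called (FDR 0.715 to 0.780). Without replicate 2 they were -1.93 (FDR 0.000366) and -0.99 (FDR 0.00721), and without replicate 4 they were -1.96 (FDR 0.00250) and -1.01 (FDR 0.0270). edgeR and DESeq2 gave positive estimates without a call, 1.31 and 1.32 for *Aqp4* and 0.59 and 0.60 for *Gfap*. *Aqp4* was called under 9 of 25 alternatives, and also lost its call without *Kat6a*+/+ replicate 1, 3 or 4 or *Kat6a*+/- replicate 3 or 4, where the estimates stayed between -1.69 and -1.39.

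The remaining transcripts had smaller fitted differences, which also varied with single libraries. *Slc1a3* was at 1472, 1387, 1271 and 1611 CPM in *Kat6a*+/+ and at 1094, 1871, 1136 and 1241 CPM in *Kat6a*-/-, with 3 *Kat6a*-/- libraries below the *Kat6a*+/+ range and 1 above it. Its log2 fold-change of -0.27 (SE 0.11, FDR 0.0439) was called under 10 of 25 alternatives, and was 0.06 without *Kat6a*-/- replicate 1 and 0.11 without replicate 3. It was also not called without *Kat6a*+/+ replicate 1 or 4 or *Kat6a*+/- replicate 3 or 4 (-0.27 to -0.21). *Slc1a2* was at 84.8, 247, 55.1 and 58.2 CPM in *Kat6a*-/- and 28.8 to 54.6 CPM in *Kat6a*+/+, without overlap but with little margin, and was not called (0.45, SE 0.25, FDR 0.153). edgeR (1.36, FDR 0.0424) and DESeq2 (1.37, FDR 0.00689) called it higher, and the estimate was 1.34 without *Kat6a*-/- replicate 1, 1.71 without replicate 3, 0.26 without replicate 2 and 0.36 without replicate 4, none called. *Gja1* was at 205, 1267, 264 and 455 CPM in *Kat6a*-/- against 138 to 270.0 CPM in *Kat6a*+/+ (0.33, SE 0.29, FDR 0.349), and *Aldoc* at 308, 885, 386 and 522 against 252 to 540.1 CPM (0.23, SE 0.26, FDR 0.474). For *Gja1* the estimate was 1.40 without *Kat6a*-/- replicate 1, 1.51 without replicate 3, 0.22 without replicate 2 and 0.23 without replicate 4, none called, and DESeq2 called it higher (1.42, FDR 0.0127). For *Aldoc* it was 0.80 without *Kat6a*-/- replicate 1, 0.83 without replicate 3 and -0.04 without *Kat6a*+/+ replicate 3.

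**Figure D3:**
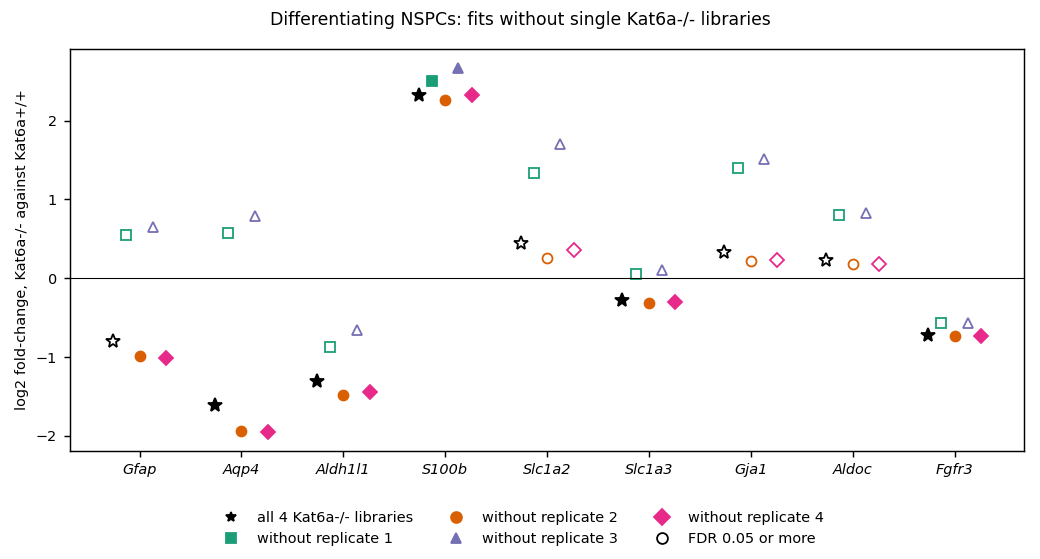
Fitted log2 fold-change of *Kat6a*-/- against *Kat6a*+/+ in differentiating NSPCs for the 9 transcripts tested, with all 4 *Kat6a*-/- libraries and without each in turn. Filled symbols have an FDR under 0.05. *S100b* is filled in all 5 fits, between 2.27 and 2.67, while *Gfap* and *Aqp4* lie above 0 without replicate 1 or 3 and below 0 without replicate 2 or 4.

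In *Kat6a*+/- vs. *Kat6a*+/+ differentiating NSPCs 0 of 9 transcripts were called by limma-trend, edgeR or DESeq2, and 0 of 9 had an unadjusted p under 0.05. Limma-trend called 0% of all genes (1926 of 13339 at an unadjusted p under 0.05), edgeR 0 and DESeq2 8. Groups overlapped for all 9, and 2.78% of all genes had groups without overlap. *Kat6a*-/- vs. *Kat6a*+/- NSPCs had 3 of 9 called, 1 higher and 2 lower, against 37.5% of all genes. These were *S100b* (1.64, FDR 0.00606), *Aldh1l1* (-1.94, FDR 0.00144) and *Fgfr3* (-0.50, FDR 0.00791), and none was called without *Kat6a*-/- replicate 1 or 3 (estimates 1.81 and 1.99 for *S100b*, -1.52 and -1.32 for *Aldh1l1* and -0.37 and -0.37 for *Fgfr3*). Without *Kat6a*-/- replicate 2, 6 were called, and 5 were called without *Kat6a*-/- replicate 4 or *Kat6a*+/- replicate 2 or 3. Shares of all genes called in these refits are likewise not given.

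The spread of single *Kat6a*-/- libraries was then described for differentiating NSPCs. Replicate 2 was the highest of the 4 for 9 of the 10 transcripts, all but *S100b*, and replicate 1 was the lowest for 7. In proliferating NSPCs, replicate 2, which carries the same embryo label, was the lowest for 6 of 10 and the highest for none. The highest differentiating *Kat6a*-/- library exceeded the lowest 59.5-fold for *Aqp4*, 12.9-fold for *Gfap*, 6.19-fold for *Gja1* and 4.49-fold for *Slc1a2*. It did so 1.89-fold for *S100b* and 1.35-fold for *Fgfr3*. The transcripts with wide scatter were thus a subset of the 10.

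Against all genes tested, the SD of log2 CPM over the 4 differentiating *Kat6a*-/- libraries was 2.72 for *Aqp4*, larger than that of 99.97% of genes, 1.69 for *Gfap* (98.7%), 1.16 for *Gja1* (95.4%) and 1.00 for *Slc1a2* (93.5%). It was 0.44 for *S100b* (73.0%) and 0.18 for *Fgfr3* (37.4%). The median SD of the 9 transcripts was 0.65 in *Kat6a*-/-, 0.54 in *Kat6a*+/- and 0.42 in *Kat6a*+/+ differentiating NSPCs, where all genes had medians of 0.24, 0.21 and 0.15. The median member thus varied more than the median gene in every genotype, while *Slc1a3* varied slightly less than the median gene in *Kat6a*+/+ (SD 0.14) and *Kat6a*+/- (SD 0.20). In *Kat6a*+/- the SD of *Aqp4* was 0.96 and exceeded that of 96.5% of genes.

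Relative to the mean of the *Kat6a*+/+ libraries, log2 CPM of *Gfap* in *Kat6a*-/- replicates 1 to 4 was -1.83, 1.85, -1.04 and 0.91, where the SD of the *Kat6a*+/+ libraries was 0.47. For *Aqp4* the values were -2.99, 2.89, -1.86 and 1.29, with an SD of 0.42. Replicates 1 and 2 came from the same litter and both were female by Y-linked reads (0.498 and 1.28 CPM), so the most extreme pair shared litter and sex. *Kat6a*+/+ replicate 3 and *Kat6a*+/- replicate 1 of that litter were at 339 and 881 CPM of *Gfap* and 101 and 258 CPM of *Aqp4*. In the litter of *Kat6a*-/- replicate 3, the *Kat6a*+/+ littermate was at 703 CPM and the *Kat6a*+/- littermate at 239 CPM of *Gfap*, against 256 CPM in the mutant.

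**Figure D4:**
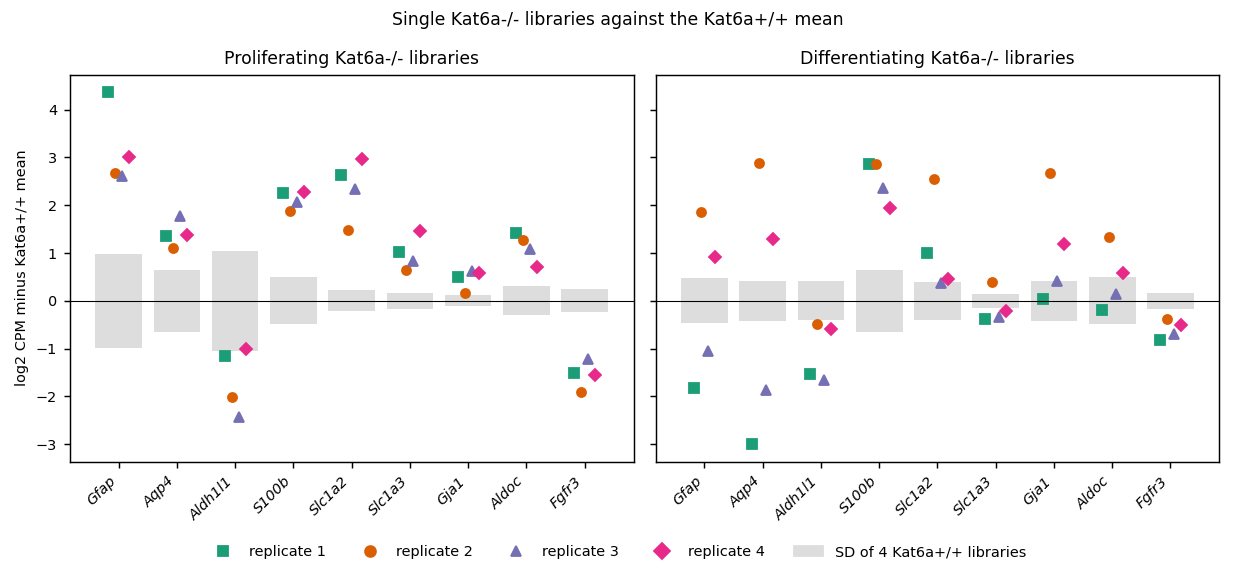
Log2 CPM of each *Kat6a*-/- library minus the mean of the 4 *Kat6a*+/+ libraries of the same condition, with grey bars for 1 SD of the *Kat6a*+/+ libraries on either side of 0. In proliferating NSPCs the 4 replicates fall on the same side of 0 for each of the 9 transcripts drawn (*Gjb6* is left out). In differentiating NSPCs *Gfap* ranges from -1.83 to 1.85 and *Aqp4* from -2.99 to 2.89, while the 4 points of *S100b* lie together above 0 and those of *Fgfr3* below it.

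Levels of other marker lists were set beside this spread, per library for the first list and as ranges for the others. Summed over a list of 10 mesenchymal and fibroblast markers, the differentiating *Kat6a*-/- replicates 1 to 4 had 934, 148, 929 and 599 CPM, the reverse of their order for *Gfap*, while *Kat6a*+/+ libraries had 226 to 671 and *Kat6a*+/- libraries 154 to 1811 CPM. Of these markers 4 of 6 tested were called higher in *Kat6a*-/-, against 54.4% of all genes called in either direction. *Acta2* (FDR 0.0725) and *Tagln* (FDR 0.0653) were not called by limma-trend. Ependymal markers were at 193 to 501 CPM in *Kat6a*-/- and 226 to 411 CPM in *Kat6a*+/+, neuronal markers at 539.6 to 923 and 602 to 789 CPM, and oligodendrocyte lineage markers at 860.3 to 1318 and 1347 to 1546 CPM. *Kat6a* itself was highest in replicate 2. The part of these in the spread of *Gfap* and *Aqp4* was not tested. All 10 microglia markers were below 1 CPM in every differentiating library.

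Embryo labels occurring in both conditions allowed single cultures to be followed. In the *Kat6a*-/- embryo of replicate 2, *Gfap* rose by 9.85, *Aqp4* by 10.08, *Gja1* by 3.78 and *Slc1a2* by 2.04 on the log2 scale from proliferating to differentiating NSPCs. In replicate 3, *Gfap* rose by 7.01, *Aqp4* by 4.67 and *Gja1* by 1.06, while *Slc1a2* fell by 0.97. In replicate 4 the values were 8.56, 8.22 and 1.87, and *Slc1a2* fell by 1.53. A *Kat6a*+/+ embryo with matching sex in both conditions, replicate 3, had 10.00 for *Gfap* and 8.77 for *Aqp4*, and a *Kat6a*+/- embryo 8.97 and 8.91. The *Kat6a*+/+ values start from 2 reads of *Gfap* and 1 read of *Aqp4* in the proliferating library. The log2 values include a prior count, which lowers rises from so few reads, so *Kat6a*+/+ and *Kat6a*-/- embryos cannot be ranked by them.

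The genes whose pattern was most like that of *Gfap* were sought across the 12 differentiating libraries after subtracting genotype means. The highest Pearson's r among 13338 genes were those of *Map3k19* (0.985), *Adamts16* (0.980), *Tmem175* (0.978), *Armc9* (0.977) and *Gpr55* (0.976). *Adamts16*, a secreted metalloprotease gene, was at 6.40, 176, 17.1 and 61.5 CPM in *Kat6a*-/- replicates 1 to 4 and at 28.6 to 62.5 CPM in *Kat6a*+/+. Among the markers themselves, *Aqp4* ranked 8th of all genes (r = 0.974), and *Gja1* (0.866), *Slc1a3* (0.865) and *Aldoc* (0.858) also went with *Gfap*. *Slc1a2* (0.480), *Aldh1l1* (0.438) and *Fgfr3* (0.398) did so less and *S100b* not (-0.01). Over the 8 *Kat6a*+/+ and *Kat6a*+/- libraries alone, r was 0.897 for *Aqp4*, 0.904 for *Slc1a3*, 0.828 for *Aldoc*, 0.595 for *Gja1*, 0.131 for *Slc1a2* and 0.141 for *S100b*, and it turned negative for *Aldh1l1* (-0.147) and *Fgfr3* (-0.118). The libraries share depth and culture, and these are descriptions of 12 libraries with no test.

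An interaction term over all 24 libraries tested whether *Kat6a*-/- differed from *Kat6a*+/+ by unlike amounts in the 2 conditions. Of 9 transcripts 1 was called, *Slc1a3*, and 13.9% of all genes were called. The *Kat6a*-/- difference of *Slc1a3* was lower in differentiating than in proliferating NSPCs by 1.12 on the log2 scale (SE 0.30, FDR 0.0158), and was called under all 35 alternatives, with estimates of -1.34 to -1.01. The *Kat6a*-/- libraries were at 1012 to 1783 CPM of *Slc1a3* in proliferating and 1094 to 1871 CPM in differentiating NSPCs, and the *Kat6a*+/+ libraries rose from 576 to 751 CPM to 1271 to 1611 CPM. *Slc1a2* had -1.33 (SE 0.59, FDR 0.134) and was called under 2 of 35 alternatives (lowest FDR 0.00267). Among these was the fit without differentiating *Kat6a*-/- replicate 2 (-1.88, FDR 0.00507). *Fgfr3* had 0.91 (SE 0.34, FDR 0.0754) and was called under 3 of 35 alternatives (lowest FDR 0.0217). Among these was the fit without proliferating *Kat6a*+/- replicate 2 (0.85, FDR 0.0485). *Gfap* had -3.38 with an SE of 2.89 (FDR 0.465) and *Aqp4* -1.68 with an SE of 4.93 (FDR 0.854), and limma-voom called neither. DESeq2 called the difference of *Gfap* (-2.91, FDR 0.0295). The reads of *Gfap* and *Aqp4* in proliferating *Kat6a*+/+ libraries, 0 to 22 and 1 to 17, limited both estimates. *S100b* had 0.28 (95% interval -0.79 to 1.34).

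Other genes of astrocytes were compared from lists drawn up with earlier results known. Of 30 other astrocyte-enriched genes, 28 were tested in proliferating NSPCs, 21 were called higher in *Kat6a*-/- and 1 lower, with a median log2 fold-change of 0.98, where 30% of all genes were called. *Pla2g7*, a phospholipase gene, went from 1.10 ± 1.08 to 19.8 ± 10.4 CPM (SD, n = 4; log2 fold-change 4.19) and the zinc transporter gene *Slc39a12* from 0.165 ± 0.106 to 1.79 ± 0.881 CPM (3.17). *Htra1*, a secreted protease gene, fell by 0.56 on the log2 scale (FDR 0.0409) and lost this call without any 1 *Kat6a*-/- library, *Kat6a*+/+ replicate 1, 2 or 4 or *Kat6a*+/- replicate 1 or 2. With litter as a fixed term 10 genes of the list were called, and neither *Pla2g7* nor *Slc39a12* was, and 13 were called without *Kat6a*+/+ replicate 1. In differentiating NSPCs 8 of 29 were called higher and 3 lower (median 0.03), a share below the 54.4% called among all genes. *Htra1* (3.03) and *Cst3* (1.23) were higher and *Glul*, encoding glutamine synthetase (-1.003), and *Ndrg2* (-0.91) lower. None of the list was called without *Kat6a*-/- replicate 1 or 3 (limma-trend), 17 were called without replicate 2 and 7 without *Kat6a*+/+ replicate 3. Shares of all genes called in such refits are not given, here or for the lists below. *Ndrg2* also lost its call without *Kat6a*+/+ replicate 1 or 3. Their summed level in differentiating *Kat6a*-/- replicates was 9392, 19258, 11383 and 12664 CPM against 8366 to 9807 CPM in *Kat6a*+/+, again highest in replicate 2. 

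Of 15 gliogenic transcription factors and effectors, 5 were called higher and 3 lower in proliferating *Kat6a*-/- NSPCs (median 0.09), against 30% of all genes called. *Id1*, an effector of BMP signals (1.50), and *Zbtb20*, a factor of astrocyte formation (1.40), were higher, and the Notch target *Hey1* (-0.55) and *Stat3* (-0.44), the factor of the cytokine pathway to *Gfap*, were lower. *Stat3* lost its call without *Kat6a*+/+ replicate 4 or *Kat6a*-/- replicate 3, and *Hey1* without *Kat6a*+/+ replicate 1, 2 or 4, *Kat6a*-/- replicate 1 or 4 or *Kat6a*+/- replicate 1. In differentiating NSPCs 1 was called higher and 11 lower (median -0.67), against 54.4% of all genes called. *Hes5*, a Notch target, went from 33.7 ± 17.6 to 1.92 ± 1.10 CPM (SD, n = 4; -4.58, FDR 6.59e-06) and *Id4* from 242 ± 58.7 to 160.3 ± 135 CPM (-1.61), while *Hes1* was higher (0.59, not called without *Kat6a*+/+ replicate 1 or 3). Without *Kat6a*-/- replicate 1, 2 of the list were called, and 3 without replicate 3. *Id4* was not called without either of these (-0.60 and -0.38) or by edgeR (-0.60) or DESeq2 (-0.58).

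Of 20 genes of reactive astrocytes, 13 were tested in proliferating NSPCs, 3 were called higher and 4 lower in *Kat6a*-/- (median -0.44), against 30% of all genes called. *Cp*, encoding the copper carrier ceruloplasmin (1.98), and the cytokine receptor gene *Osmr* (1.77) were higher, and the protease inhibitor gene *Serpina3n* (-2.97) and *S100a10* (-1.43) lower. *Osmr* lost its call without any 1 *Kat6a*+/+ library or *Kat6a*-/- replicate 1 or 4. In differentiating NSPCs 15 of 19 were called higher and 0 lower (median 1.24), against 54.4% of all genes called. *Cp* went from 226 ± 152 to 1689 ± 1320.2 CPM (3.74) and the chemokine gene *Cxcl10* from 1.80 ± 1.02 to 13.9 ± 11.8 CPM (3.82; SD, n = 4), and 3 of the list were called without *Kat6a*-/- replicate 1 or 3. Neither *Cp* (2.32 and 2.01) nor *Cxcl10* (2.76 and 1.93) was called without replicate 1 or 3. The summed level of this list was 10284 to 12911 CPM in all 4 *Kat6a*-/- libraries against 5869 to 7541 CPM in *Kat6a*+/+, without overlap. Unlike *Gfap*, it did not follow the order of the single *Kat6a*-/- libraries, being highest in replicate 1.

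Markers of other cells in proliferating NSPCs were neuronal (1 of 10 called higher and 3 lower in *Kat6a*-/-), oligodendrocyte lineage (2 higher and 1 lower of 9), endothelial (0 and 1 of 3), mesenchymal (0 and 0 of 2) and ependymal (1 and 0 of 2). Of 10 microglia markers 9 were below 1 CPM in every proliferating library, and *P2ry12* was at 1.21 to 1.41 CPM in *Kat6a*+/+ and 6.13 to 8.25 CPM in *Kat6a*-/-. This gene was singled out after its values were seen. Genes of radial glia and stem cells, a list that shares *Slc1a3* and *Aldoc* with the members, had 7 higher and 3 lower of 14 in proliferating and 4 higher and 5 lower of 14 in differentiating NSPCs. Both shared genes were called higher in proliferating *Kat6a*-/- NSPCs, and *Slc1a3* was called lower in differentiating ones. In differentiating *Kat6a*-/- NSPCs, neuronal markers had 2 higher and 6 lower of 11, oligodendrocyte lineage markers 1 and 6 of 9, endothelial markers 0 and 1 of 1, ependymal markers 1 and 1 of 6, and no microglia marker was tested. For *Kat6a*-/- against *Kat6a*+/+, the share of all genes with a call in either direction was 30% (proliferating) or 54.4% (differentiating). With so few genes per list, counts near these shares are not results about a cell type. The part of these cell types in the changes of the 10 transcripts was not tested.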

How the data were processed

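RNA-seq libraries were prepared by the authors from 200 ng of RNA with a stranded mRNA kit. Reads were aligned to mm39 with Rsubread and assigned to RefSeq exons with featureCounts, and the submitters' notes also name bcl2fastq. Tool versions and the strand setting of counting were not given in the sources used here. The deposited values are raw read counts per gene for 24 libraries, with exon lengths. From the deposited counts, CPM (counts scaled by TMM-adjusted library totals) and RPKM (CPM per kilobase of exon) were computed and were not normalized by the authors.

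Protein-coding genes were kept, *Xist* and genes found only on Y were removed, and low genes were filtered with filterByExpr. Proliferating libraries were fitted with limma-voom, treating litter as a random block whose estimated correlation was 0.287. For differentiating libraries, limma-trend was used with log2 CPM (prior count 2) and a quality weight per library. All 24 libraries were fitted with limma-voom and the litter block for contrasts between conditions and for the interaction. The estimated litter correlation of this fit was 0.00363, and libraries of the same embryo were not paired. Each used robust empirical Bayes and Benjamini-Hochberg FDR under 0.05 over all genes tested. The fits were tested on simulated data. R 4.3.3, limma 3.58.1, edgeR 4.0.16, DESeq2 1.42.0, Python 3.11.15 and matplotlib 3.10.9 were used.

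Groups were taken from the labels. Libraries of a group came from different embryos, some of them littermates. The 10 members and all gene lists were chosen with earlier results of these data known. Of the other astrocyte, gliogenic and reactive lists, the 2 largest rises and 2 largest falls among called genes were named, and the 5 genes with the highest r to *Gfap*. Alternatives changed normalization, filter, gene types, test, weights, litter term, replicate block and single libraries. Numbers of replicates did not pair libraries, since 4 of 12 same-number pairs of proliferating and 1 of 12 of differentiating libraries had deviations correlated over 0.1. No library pair differed by less than sampling noise. Intervals for counts of 0 cover counting error only, and depth was 7826660 to 40838203 counts per library.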

Additional observations from a re-analysis of the deposited data

Results flagged for a closer look

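*Gfap* in proliferating *Kat6a*-/- replicate 1 was at 6.57 CPM, far from the 1.86 to 2.49 CPM of the other 3 libraries. *Slc1a2* in differentiating *Kat6a*-/- replicate 2 was at 247 CPM, where the other 3 were at 55.1 to 84.8 CPM. *Gjb6* in proliferating *Kat6a*-/- replicate 4 was at 0.299 CPM (3 reads), where the others had none. These 3 came from 58 tests of a single sample far from its group, and chance gives about 1 in 20. The *Kat6a*-/- difference of *Slc1a3* depended on condition, with an interaction of -1.12 on the log2 scale (limma-voom, FDR 0.0158).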

How the results depend on the processing

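Of the 8 members tested in proliferating *Kat6a*-/- vs. *Kat6a*+/+ NSPCs, 6 were called, and 6 with the replicate block. Against *Kat6a*+/-, 3 were called, 5 with quality weights and 3 to 6 without single libraries. In differentiating *Kat6a*-/- vs. *Kat6a*+/+ NSPCs 5 were called, 4 with the replicate block, 3 with no filter, all gene types, edgeR or litter as a fixed term, 2 with a sex term (chosen after the data were seen), no quality weights or limma-voom with a litter block, and 1 to 6 without single libraries. Against *Kat6a*+/- 3 were called, 5 without TMM, with a stricter filter or by DESeq2, and 0 to 6 without single libraries. For the interaction 1 was called, 1 with the replicate block, 2 by edgeR, 3 by DESeq2 or with quality weights, and 1 to 2 without single libraries. Shares of all genes called under these settings are not set beside these counts, so their changes cannot be read as particular to the members.

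Signs turned in differentiating *Kat6a*-/- vs. *Kat6a*+/+ NSPCs for *Gfap* (edgeR 0.59, DESeq2 0.60, single libraries left out -1.10 to 0.65), *Aqp4* (1.31, 1.32, -1.96 to 0.80), *Slc1a3* (-0.36 to 0.11), *Aldoc* (-0.040 to 0.83), *Ndrg2* (DESeq2 0.0056, -1.08 to 0.093) and *Hes1* (limma-voom with a litter block -0.0091, -0.24 to 0.68). They also turned for *Slc1a3* between conditions in *Kat6a*-/- (without TMM -0.089, all gene types -0.0082, quality weights -0.0022, -0.18 to 0.15) and for the interactions of *S100b* (-0.15 to 0.46) and *Gja1* (quality weights -0.011). The cause was not tested. Of single-gene values under all alternatives, 1961 kept sign and side of the threshold, 155 lost and 35 gained a call and 31 turned sign. Without TMM the median of all genes moved by -0.15 in differentiating *Kat6a*-/- vs. *Kat6a*+/+ NSPCs, where 31.7% of calls were higher. It moved by -0.15 for the interaction (22.1% higher), -0.12 for differentiating *Kat6a*-/- vs. *Kat6a*+/- and -0.10 between conditions in *Kat6a*-/-. Depth limited *Gfap*, *Aqp4* and *Gjb6* in proliferating NSPCs.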
